A study of Rattus norvegicus with 16 samples.

Results

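The small leucine-rich proteoglycans are 9 genes of the rat disc data described here, Fmod, Prelp, Chad, Lum, Dcn, Bgn, Ogn, Omd and Optc. They were chosen by name, and all 9 are among the 14930 genes listed for any of the groups and among the 13596 listed for every group. Each of 8 male Sprague-Dawley rats, 8 weeks old at surgery, had 2 lumbar intervertebral discs stabbed once with a needle (lumbar disc puncture, LDP), and 2 uninjured discs above them in the same animal served as control (CON). The discs of one kind from a rat were pooled into 1 library, so the 16 libraries are CON and LDP pairs from rats 1 to 4 at 2 weeks and from rats 5 to 8 at 8 weeks after surgery, 4 libraries in each group. All animals were operated on, so no library comes from an animal without an injured disc. CON discs lay above LDP discs in every rat, so injury and lumbar level cannot be told apart between LDP and CON. Digested tissue was read by droplet-based 3′ single-cell RNA sequencing, and the values below are mean CPM (counts scaled to a fixed total per cell) over the cells of a class in 1 library.

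The proteins of this family carry a core of leucine-rich repeats that binds collagen fibrils and limits how they grow and fuse. Dcn and Bgn (decorin and biglycan) belong to the class that carries chondroitin or dermatan sulfate chains and also binds transforming growth factor β. Fmod, Lum, Prelp and Omd (fibromodulin, lumican, PRELP and osteoadherin) form another class with keratan sulfate or sulfated tyrosines, Ogn and Optc (osteoglycin and opticin) belong to a further one, and Chad (chondroadherin), a collagen-binding and cell-binding protein of cartilage, stands apart from these. In the disc the fibrous annulus rich in type I collagen surrounds a nucleus pulposus rich in aggrecan and type II collagen, and family members are known from both.

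The 16 libraries held 149272 cells, 2221 to 15918 each, with a median of 3861 to 8092 UMIs (unique molecular identifiers, one per counted transcript) per cell. Pairs of libraries shared at most 0.720% of the barcodes of the smaller one. The authors clustered each group apart and named a disc cell (IVD) class, endothelial, myeloid and lymphoid classes and unnamed cells. At 2 weeks the IVD class was divided further into cells of the nucleus pulposus (NP) and of the inner (IAF) and outer (OAF) annulus fibrosus, by cluster numbers that were named from the study's text for CON and, for LDP, by matching the clusters to the study's description, which leaves the LDP names of NP and IAF less sure, whereas no subclusters are given at 8 weeks and CON at 8 weeks has no endothelial class. All 5 markers fixed for IVD cells (Acan, Col2a1, Sox9, Fmod and Comp) were above 0 in the IVD class of each group. They were also above 0 in the lymphoid and endothelial cells of every library with enough of them. Being above 0 therefore does not set the IVD class apart. Fmod was one of the markers that named that class and Lum one of those that named OAF cells, and all members were among the values clustered, so levels by class are given as a description without a test. NP cells were the deeper cells in all 8 libraries, their median UMIs exceeding those of IAF cells by a factor of 1.65 to 3.20.

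Lum and Ogn were transcripts of the outer annulus. In CON at 2 weeks Lum, which organizes collagen fibrils in cornea, tendon and skin, had 1102, 2446, 1335 and 1307 CPM in the OAF cells of rats 1 to 4. The same libraries held 50.1, 89.6, 127 and 50.4 CPM in IAF cells and 19.4, 23.1, 34.5 and 22.9 CPM in NP cells, so the 3 ranges did not overlap. Ogn, a secreted member found in bone, tendon and vessel wall, had 1223, 983, 1026 and 1069 CPM in OAF cells, against 89.1 to 139 CPM in IAF and 90.2 to 111 CPM in NP cells, which overlapped each other. On the log2 scale the OAF level exceeded the IAF level by a mean of 4.31 for Lum (3.38 to 4.76) and of 3.18 for Ogn (2.88 to 3.45) in CON, and by 5.96 (5.64 to 6.28) and 3.58 (3.30 to 3.79) in LDP, above 0 in 4 of 4 libraries of each group.

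Bgn and Fmod were also highest in OAF cells, by less. Bgn had 5139.8, 7503, 5858 and 4568 CPM in the OAF cells of CON, and its means in NP and IAF cells were 2141 and 2082 CPM. Fmod, a fibril-binding member that also binds transforming growth factor β, had 4545, 4164, 3634 and 4207 CPM in OAF cells, against means of 1998 CPM in NP and 1830.1 CPM in IAF cells. The OAF to IAF difference was 1.45 (1.23 to 1.94) for Bgn and 1.18 (0.93 to 1.46) for Fmod in CON on the log2 scale. In LDP it was 1.45 (1.34 to 1.59) for Bgn and 0.90 (0.59 to 1.33) for Fmod, and the OAF range lay above the NP and IAF ranges in both groups for both genes.

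Chad, Prelp and Optc ran the other way. Chad had 8724, 13266, 11039 and 12560.3 CPM in the IAF and 7925, 12987, 12419 and 11359 CPM in the NP cells of CON, with 2698, 3096, 3689 and 6079 CPM in OAF cells. Prelp, which binds collagen and the heparan sulfate of basement membranes, had means of 3104, 2926 and 2014 CPM in NP, IAF and OAF cells of CON. Optc, known from the vitreous of the eye and from cartilage, was a rare transcript with means of 40.3, 29.3 and 8.39 CPM. For these 3 genes the OAF range of CON lay below both other ranges, and the log2 difference of OAF from IAF was −1.61 (−2.10 to −1.05) for Chad, −0.54 (−0.61 to −0.45) for Prelp and −1.69 (−2.27 to −1.39) for Optc. In LDP the same difference was −1.13 (−1.48 to −0.85), −0.89 (−1.29 to −0.43) and −1.75 (−2.06 to −1.56), again below 0 in 4 of 4 libraries.

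Dcn and Omd had overlapping ranges in the 3 kinds of disc cells. Dcn had means of 12587, 11100 and 10463 CPM in OAF, IAF and NP cells of CON, and the log2 difference of OAF from IAF ran from −0.22 to 0.67 in CON and from −0.78 to 0.74 in LDP. Omd, best known from mineralized tissue, had means of 37.0 CPM in IAF, 33.7 CPM in NP and 25.4 CPM in OAF cells, and its log2 difference of OAF from IAF was −0.58 in CON, below 0 in 4 of 4 libraries, and −0.60 (−0.90 to 0.03) in LDP.

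**Figure D1:**
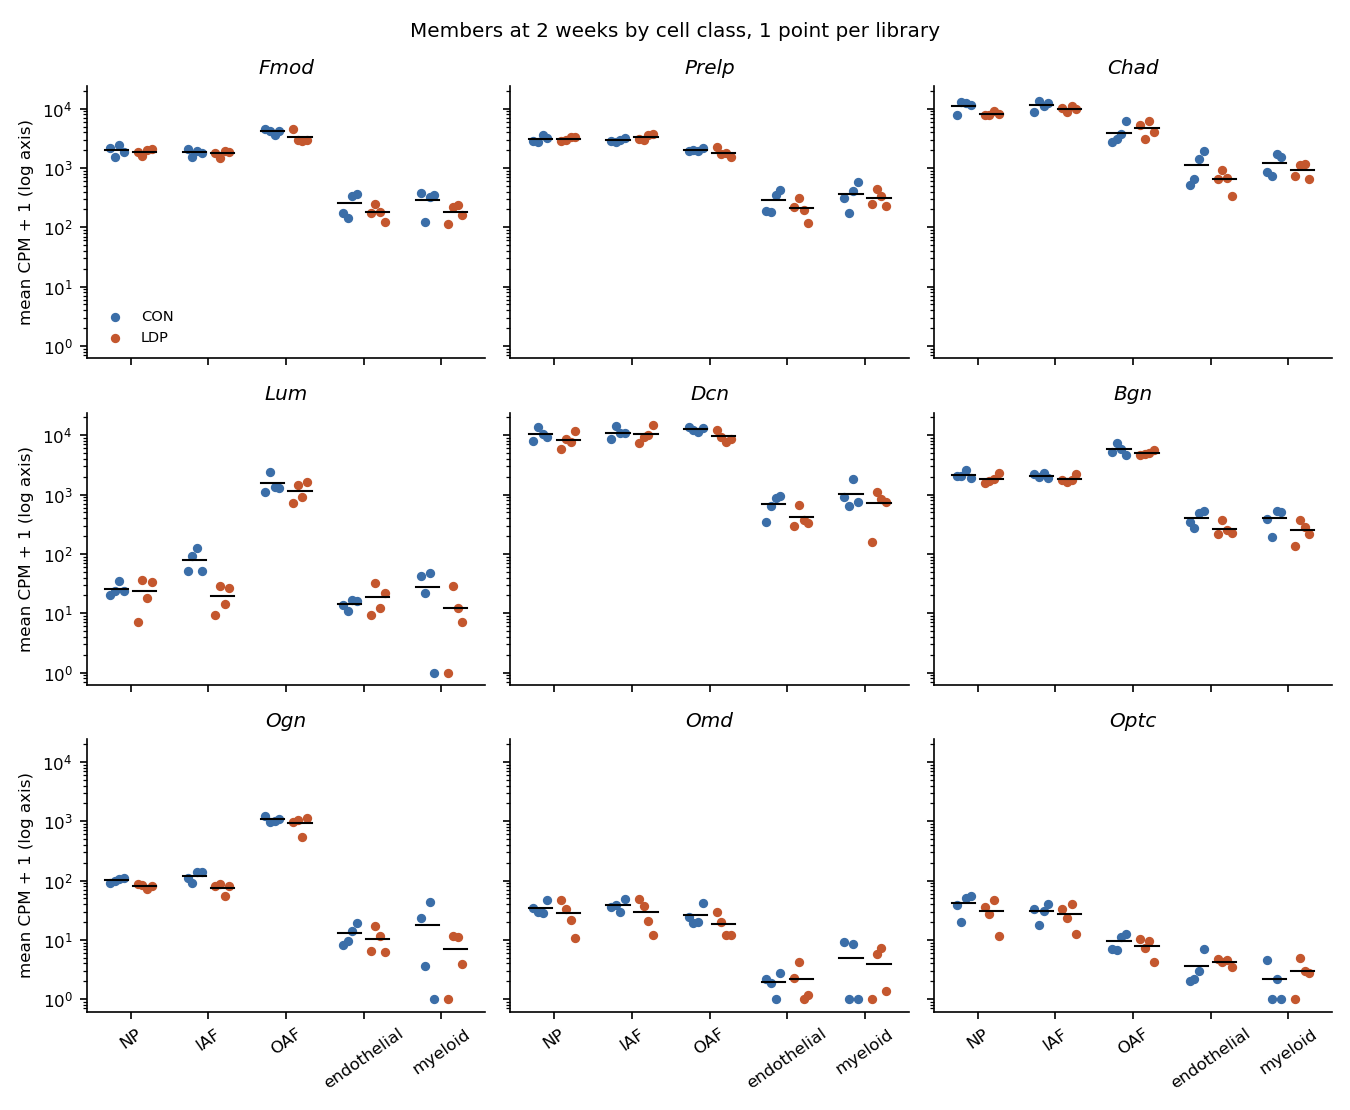
Mean CPM + 1 (log axis) of each member at 2 weeks in NP, IAF, OAF, endothelial and myeloid cells; each point is 1 library, blue for CON and orange for LDP, and black bars are means of 4 libraries. Lum and Ogn stand highest in OAF cells, Chad, Prelp and Optc lowest there among the disc cells, and Dcn is level across the 3.

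Endothelial cells held less of each member at 2 weeks, and unnamed cells held more Lum than IAF or NP cells did, at 395 CPM (329.8 to 466) in CON at 2 weeks. In CON at 2 weeks endothelial cells had means of 252 CPM of Fmod, 285 of Prelp, 1124 of Chad, 13.4 of Lum, 702 of Dcn, 409 of Bgn, 11.8 of Ogn, 0.963 of Omd and 2.56 of Optc. The IVD level was above the endothelial level in 4 of 4 libraries for all 9 members in CON and in LDP at 2 weeks. At 8 weeks in LDP this held in 4 of 4 libraries for 7 members. The exceptions were Lum and Ogn, above in 3 of 4 libraries, with group means of 46.2 CPM of Lum in both IVD and endothelial cells and of 103 and 51.9 CPM of Ogn. The library in which the endothelial level was the higher one was that of rat 8 for Lum and that of rat 6 for Ogn. Endothelial Ogn had 141 CPM in rat 6, beside 11.7, 21.5 and 33.8 CPM in rats 5, 7 and 8. The endothelial class of these LDP libraries held 55 to 225 cells each. The endothelial cells of rats 6, 7 and 8 also held RNA of mural cells, with Rgs5 at 268, 403 and 198 CPM. Rgs5 had 24.4 CPM in rat 5 and, at 2 weeks, 2.14 to 28.6 CPM in CON and 29.2 to 100 CPM in LDP. The part of mural RNA in the Lum and Ogn levels was not tested.

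Shares of cells with a UMI, taken after each cell was thinned to 1000 UMIs, gave the same order for the less abundant members. In CON at 2 weeks Lum was found in 55.7 ± 9.66% (SD, n = 4) of OAF, 5.09% of IAF and 2.21% of NP cells. Endothelial cells, which should lack Lum, showed it in 1.39%, so the NP value was close to that background. Without thinning the shares were 79.3, 10.9 and 11.5%, with medians per library of 3258 to 7178, 2442 to 3789 and 6997 to 8544 UMIs. Ogn was found in 50.03% of OAF, 8.80% of IAF and 8.24% of NP cells after thinning, against 1.08% of endothelial cells. For Dcn and Chad the thinned endothelial shares were themselves 42.5 and 55.3%. In the lymphoid cells of the 1 CON library that had enough of them they were 15.4 and 28.6%. The source of these UMIs in cells of other classes was not tested. IVD shares were 98.1% for Dcn and 93.4% for Chad.

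The part of a member's signal that came from OAF cells followed from these levels. OAF cells were 9.28 to 14.6% of the NP, IAF and OAF cells of CON libraries and 6.29 to 16.4% of those of LDP libraries. They held 79.2 ± 13.1% of the summed Lum CPM of the disc cells in CON and 88.5 ± 2.22% in LDP (SD, n = 4), and 55.9 ± 9.81% and 58.3 ± 14.7% of Ogn. The parts of Bgn (26.7 and 26.3%) and Fmod (23.0 and 19.1%) were smaller, and those of Chad (4.34 and 6.01%) and Optc (3.20 and 3.37%) were below the share of cells. A level of Lum or Ogn in the whole IVD class therefore moves with the number of OAF cells in a library as well as with the RNA per cell, and at 8 weeks, with no subclusters, fewer OAF cells and less RNA per OAF cell cannot be told apart.

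**Figure D2:**
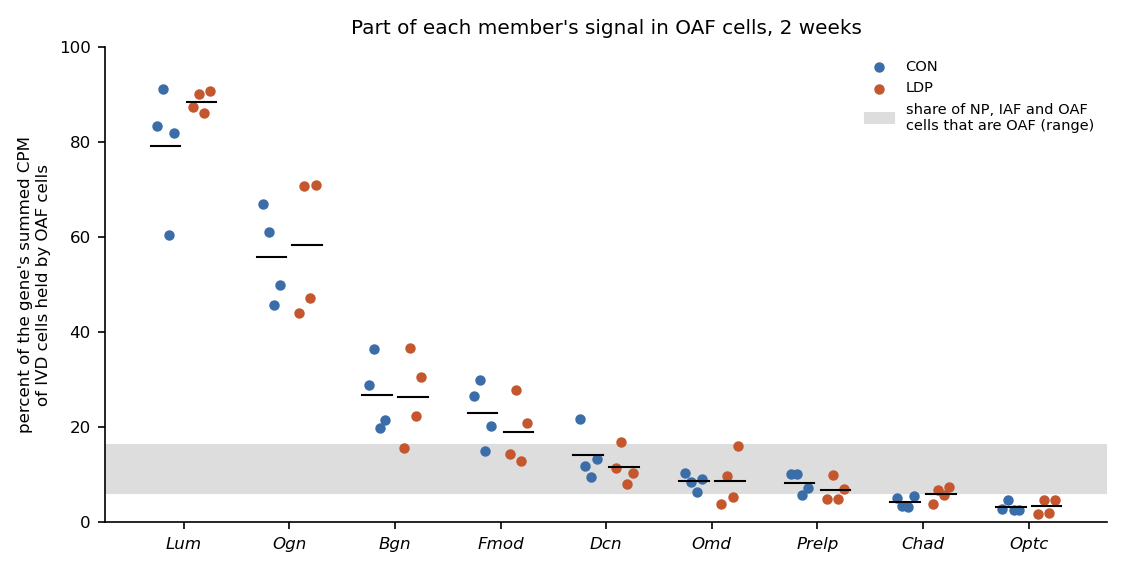
Percent of each member's summed CPM over NP, IAF and OAF cells at 2 weeks that OAF cells held (vertical axis), by library, blue for CON and orange for LDP with bars at the means; the grey band is the range of the share of these cells that are OAF. Lum lies between 60.5 and 91.3% and Optc between 1.83 and 4.81%.

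Across the 24 points that the 8 libraries of 2 weeks give for NP, IAF and OAF cells, Lum, Ogn and Bgn varied together on the log2 scale, with Pearson's r of 0.960 between Lum and Ogn and 0.954 between Lum and Bgn. Chad and Prelp had r of 0.833 with each other and of −0.813 and −0.882 with Lum. Dcn stood apart, with r between −0.384 and 0.348 with every other member. These values describe 24 points that share libraries and subclusters, and they carry no test. The same measure over 2545 other genes with a mean of at least 50 CPM placed Ecm1, Ltbp2 and Myoc nearest to Lum (0.989, 0.987 and 0.986), Mxra8, C1r and Lhfpl6 nearest to Ogn (0.988, 0.987 and 0.986) and Serpinh1, Col1a2 and Serpinf1 nearest to Bgn (0.981, 0.981 and 0.976). Nearest to Fmod were Spop, Cybrd1 and Ggcx (0.956, 0.954 and 0.950), to Chad Rcsd1, F5 and Mgat4a (0.934, 0.927 and 0.925), and to Prelp Bnip3, Inpp1 and Cilp (0.944, 0.936 and 0.935). For Dcn the highest value was 0.552 (Ctsa).

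Of the 4 pairs of members that are adjacent on a chromosome, 1 had a high positive correlation. In the RefSeq annotation of GRCr8, Dcn and Lum are adjacent on chromosome 7, followed by Kera and Epyc, and Optc, Prelp and Fmod are adjacent on chromosome 13. Ogn and Omd are adjacent on chromosome 17, followed by Aspn. Over the 24 points r was 0.348 between Dcn and Lum, −0.286 between Ogn and Omd, −0.700 between Prelp and Fmod, and 0.817 between Prelp and Optc.

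The sequence before the start of Lum and Ogn, whose OAF levels were furthest above their IAF levels, and of Chad, whose OAF level was below its IAF level, is shown to set the opposite patterns beside the promoters. The table of RefSeq promoter windows used here holds 5 of the 9 members. Each line gives the 250 bases before the annotated start, 5′ to 3′ on the strand of the gene, from GRCr8, a later build than the rn6 named in the submitters' processing notes. Capitals mark matches, on either strand, to 3 short motifs. The TATA box was searched as TATAAA. The core bound by SOX factors was searched as AACAAT. The GC box was searched as GGGCGG.
Lum: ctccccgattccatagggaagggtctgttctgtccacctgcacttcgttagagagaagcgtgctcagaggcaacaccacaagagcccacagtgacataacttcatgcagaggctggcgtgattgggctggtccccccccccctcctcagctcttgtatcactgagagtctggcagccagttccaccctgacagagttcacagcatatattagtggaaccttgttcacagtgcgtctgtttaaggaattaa
Ogn: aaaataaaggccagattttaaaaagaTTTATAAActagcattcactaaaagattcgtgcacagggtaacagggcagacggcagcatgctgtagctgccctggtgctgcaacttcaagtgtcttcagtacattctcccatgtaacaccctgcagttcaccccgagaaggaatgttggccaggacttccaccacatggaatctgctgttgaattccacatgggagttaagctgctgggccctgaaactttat
Chad: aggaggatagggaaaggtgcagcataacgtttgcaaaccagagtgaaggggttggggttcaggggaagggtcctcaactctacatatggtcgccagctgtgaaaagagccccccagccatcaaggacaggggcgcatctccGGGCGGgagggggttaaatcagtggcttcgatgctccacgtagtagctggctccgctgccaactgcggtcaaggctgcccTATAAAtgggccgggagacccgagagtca
The Chad window is chr10:80008795-80009044 (plus strand), the Lum window chr7:34245456-34245705 (plus strand) and the Ogn window chr17:15258996-15259245 (minus strand). Chad has one match to TATAAA, beginning 29 bases before the start, and one to GGGCGG, beginning 109 bases before it. In the Lum window none of the 3 was found. Ogn has 2 overlapping matches to TATAAA on opposite strands, the nearer one beginning 222 bases before the start. Of 33469 such windows in the table, 12.9% hold the TATA box letters, 10.3% those of the SOX core and 30.5% those of the GC box on either strand. These are matches of letters and do not show that a factor binds.

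No member passed the threshold between LDP and CON in the IVD class, over all cells or in NP, IAF or OAF cells, and among the members Lum had the largest differences in the IVD class at 8 weeks and in IAF cells at 2 weeks. In the IVD class, over all cells and in the NP, IAF and OAF subclusters LDP was compared with CON by limma on log2(mean CPM + 1) with the rat as a block, and called at a Benjamini-Hochberg adjusted p below 0.05 over all genes tested, which is the adjusted p given throughout. At 2 weeks 0 of 9 members were called in the IVD class, beside 20 of all 11572 genes tested (0.173%), and the members' median log2 difference was −0.26 beside −0.08 over all genes. At 8 weeks 0 of 9 were called, beside 30 of 11572 (0.259%), with medians of −0.23 and −0.16. Beside those counts of 0, no member at 2 weeks and 3 members at 8 weeks (Lum, Ogn and Omd) had an unadjusted p below 0.05, against 1328 and 2399 of the 11572 genes, and DESeq2 on recovered counts called Lum at 8 weeks.

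At 8 weeks Lum had 145, 102, 128 and 148 CPM in the CON and 24.5, 49.3, 61.3 and 49.9 CPM in the LDP libraries of rats 5 to 8 in the IVD class. All 4 LDP libraries lay below all 4 CON libraries. The log2 difference was −1.54 (SE 0.36, 95% interval −2.33 to −0.74, adjusted p = 0.0928), lower in LDP in 4 of 4 rats, with rat 5 the furthest apart at −2.52. DESeq2 on summed counts gave −1.38 with an adjusted p of 0.00449, and limma without the libraries of rat 4, a rat of the other time point that shares the estimate of the spread, gave −1.54 with an adjusted p of 0.0335. These were the 2 of 17 alternatives that called it, and over all 17 the difference ran from −1.71 to −1.21 and the adjusted p from 0.00449 to 0.319, the latter without rat 5. The thinned share of IVD cells with Lum was 5.25% (4.28 to 6.28) in CON and 2.15% (1.33 to 2.71) in LDP.

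The other OAF markers also had lower means in LDP at 8 weeks. The summed CPM of these 5 markers (Igfbp5, Igfbp6, Myoc, Fibin and Col1a1), most of it Col1a1, ran from 2260.4 to 4123 in CON and from 987 to 2702 in LDP at 8 weeks, lower in LDP in 4 of 4 rats with overlapping groups. Without overlap were Igfbp6 (157 to 393 CPM in CON and 48.8 to 152 in LDP), Myoc (43.2 to 125 and 12.5 to 42.7) and the sum of 4 tendon and ligament markers, Tnmd, Scx, Mkx and Thbs4 (194 to 316 and 127 to 152). The part of OAF cell number in the Lum difference was not tested.

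**Figure D3:**
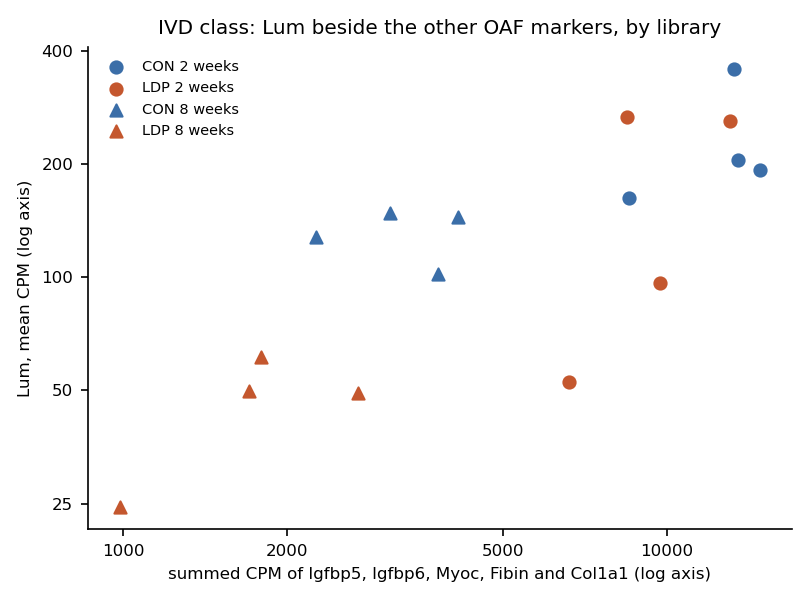
Lum (mean CPM in the IVD class, log axis) against the summed CPM of Igfbp5, Igfbp6, Myoc, Fibin and Col1a1 (log axis), 1 point per library, circles for 2 weeks and triangles for 8 weeks, blue for CON and orange for LDP. The 4 LDP libraries of 8 weeks lie at 24.5 to 61.3 CPM of Lum, a range that holds 1 other library (LDP of rat 1 at 2 weeks, 52.6 CPM), and 3 of them are the lowest for the other markers.

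Ogn and Omd were lower in LDP in 4 of 4 rats at 8 weeks without passing the threshold. Ogn had 200.4, 142, 80.6 and 248 CPM in CON and 97.5, 128, 61.7 and 127 CPM in LDP, and the groups overlapped because the CON library of rat 7 was low. Its log2 difference was −0.63 (SE 0.23, adjusted p = 0.176). Omd had 22.9, 35.2, 28.0 and 47.6 CPM in CON and 4.09, 23.5, 13.9 and 29.3 CPM in LDP, and its log2 difference of −1.11 (SE 0.38, adjusted p = 0.159) came with a low LDP library of rat 5. Without rat 5 it was −0.74 (adjusted p = 0.516). Of 17 alternatives 1 called Omd, that without the libraries of rat 4 (adjusted p = 0.0479).

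The other 6 members at 8 weeks had differences between −0.25 (Bgn) and 0.16 (Prelp), with adjusted p of 0.350 or more. Dcn, at 9523 to 12079.8 CPM in CON and 8605 to 14235 CPM in LDP, differed by −0.02 with a 95% interval of −0.33 to 0.29. Fmod differed by −0.20 (−0.47 to 0.08), Chad by −0.23 (−0.61 to 0.16) and Optc by −0.12 (−0.85 to 0.61).

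At 2 weeks Lum had 193, 358, 205 and 162 CPM in CON and 52.6, 261, 96.5 and 268 CPM in LDP. Rats 1, 2 and 3 were lower in LDP and rat 4 was higher, and the log2 difference was −0.67 (SE 0.36, adjusted p = 0.488). It was −1.13 without rat 4 and −0.27 without rat 1, and was not called in either case. OAF cells were 14.6, 13.4, 9.28 and 10.1% of the NP, IAF and OAF cells of CON in rats 1 to 4. In LDP they were 6.29, 16.4, 9.27 and 15.0%, and the part of these shares in the Lum values was not tested. Prelp was higher in LDP in 4 of 4 rats by 0.06 to 0.10 on the log2 scale, a mean of 0.08 with a 95% interval of −0.15 to 0.30. For Omd and Optc the pair of libraries of rat 4, with the highest CON and the lowest LDP level of both genes, decided the estimate. Omd had 32.7, 28.2, 27.2 and 45.9 CPM in CON and 45.2, 32.1, 19.5 and 10.4 CPM in LDP, and Optc 30.4, 16.6, 35.3 and 45.0 CPM and 32.6, 21.4, 38.5 and 9.91 CPM. Rat 4 differed by −2.04 for Omd and by −2.07 for Optc, and without it the differences of −0.47 and −0.38 became 0.06 and 0.19. In NP and IAF cells the library of rat 4 was the lowest of LDP for both genes, and in OAF cells it was the lowest for Optc and level with rat 3 for Omd (11.2 and 11.1 CPM). Dcn and Bgn differed by −0.24 and −0.21, lower in LDP in rats 1, 2 and 3 and higher in rat 4. Without rat 4 they differed by −0.42 and −0.41, not called. The LDP library of rat 4 also stood apart for genes outside the family. In NP cells it had 391 CPM of Col6a1 and 20.4 CPM of B4galt7, beside 1179 to 1733 and 8.53 to 9.12 CPM in the other LDP libraries. How far this holds over all genes was not tested.

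**Figure D4:**
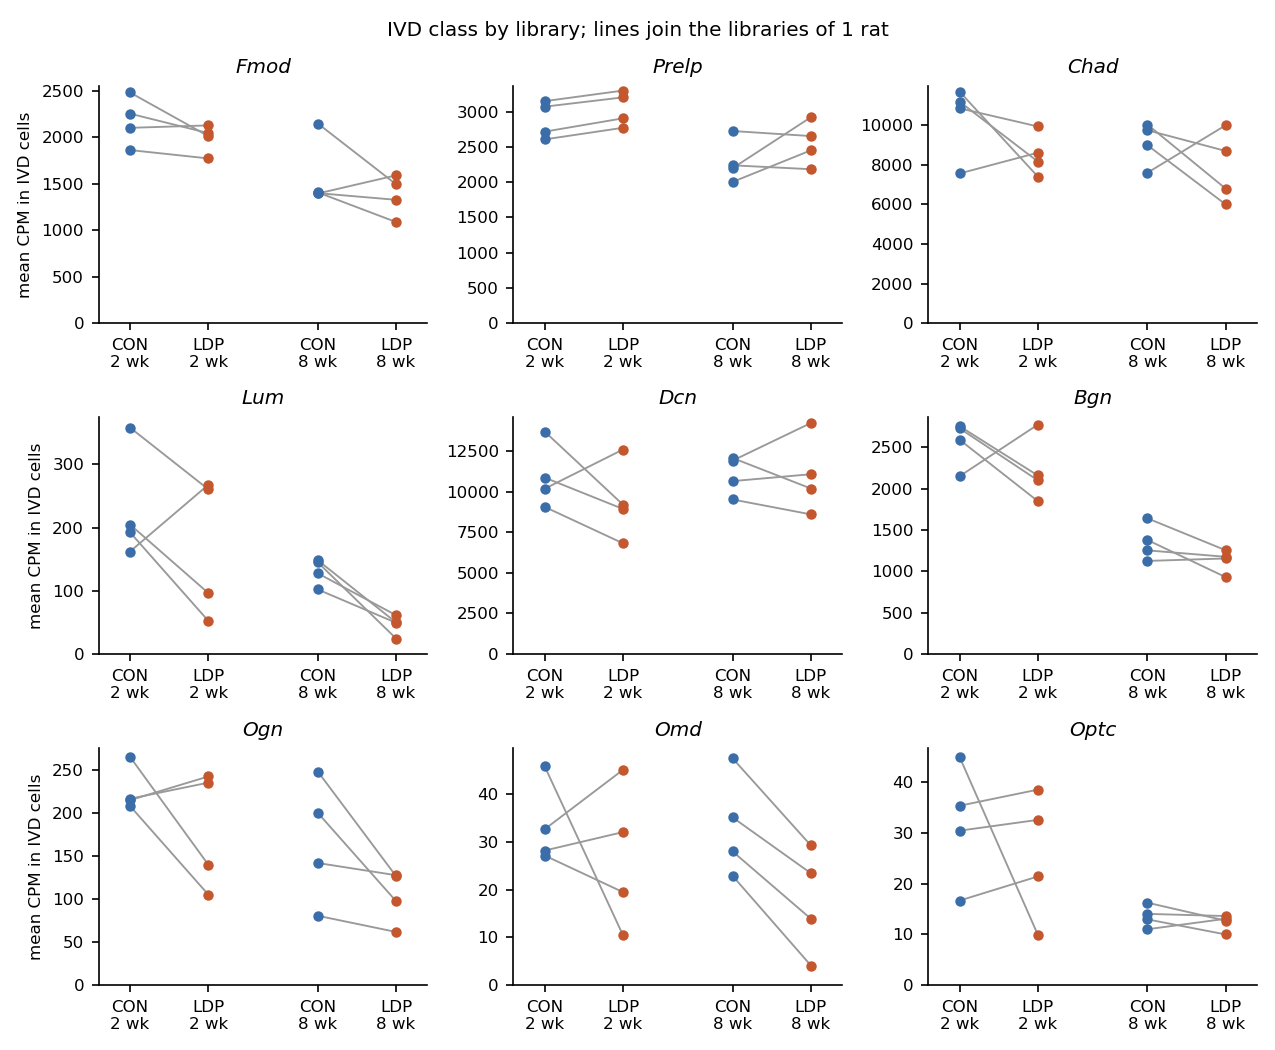
Mean CPM of each member in the IVD class (vertical axes from 0), with CON in blue and LDP in orange at 2 and 8 weeks and a grey line joining the libraries of 1 rat. All 4 lines of Lum, Ogn and Omd fall at 8 weeks, and the Omd and Optc lines of rat 4 drop furthest at 2 weeks.

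The change at 8 weeks was compared with that at 2 weeks in the same fit. For the difference of the LDP effects 0 of 11572 genes passed in limma (0%), with 210 at an unadjusted p below 0.05, none in edgeR and 13 in DESeq2. The difference of effects was −0.87 for Lum (95% interval −1.99 to 0.25) and −0.64 for Omd (−1.82 to 0.53). Single rats moved both: leaving out 1 rat gave −1.27 (rat 1) to −0.41 (rat 4) for Lum and −1.17 (rat 4) to −0.27 (rat 5) for Omd. The data therefore do not separate the 2 time points for any member.

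Taken over all cells of a library, whatever their class, 0 of 12199 genes passed at 2 weeks (0%), with 1110 at an unadjusted p below 0.05, none in edgeR and 142 in DESeq2, and 1 of 12199 at 8 weeks (0.0082%), which was no member. Lum differed by −1.57 (SE 0.33, adjusted p = 0.223) at 8 weeks over all cells, close to its value in the IVD class, and DESeq2, 1 of 16 alternatives to call it, gave −1.42 with an adjusted p of 0.00339 (up to 0.824 over the others). Lymphoid cells made up 0.772% of the cells in the 1 CON library and 0.157 to 18.8% in the 3 LDP libraries that held them at 2 weeks. At 8 weeks they made up 0.109 to 20.5% in CON and 2.13 to 8.60% in LDP. The part of this in the values over all cells was not tested.

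Within the subclusters of 2 weeks the largest difference of a member was that of Lum in IAF cells. It had 50.1, 89.6, 127 and 50.4 CPM in CON and 8.40, 27.7, 13.1 and 25.6 CPM in LDP, without overlap and lower in 4 of 4 rats. The log2 difference was −2.06 (SE 0.33, 95% interval −2.80 to −1.32, adjusted p = 0.0714), beside 10 of 10854 genes called in IAF cells (0.0921%) and a median of −0.14 over all of them. DESeq2 gave −1.51 with an adjusted p of 0.00126, and limma without rat 4 gave −2.43 with an adjusted p of 0.041, the 2 of 13 alternatives that called it, with an adjusted p of up to 0.439 over the others. Of the other members that were highest in OAF cells, Bgn and Fmod differed by −0.18 and −0.05, near the median of all genes, and Ogn by −0.67 (SE 0.22, adjusted p = 0.294). Of the wider family Kera (keratocan), which neighbours Lum, differed by −2.35 (SE 0.52, adjusted p = 0.148) and Aspn (asporin) by −1.11 (SE 0.32, adjusted p = 0.235). The 5 other OAF markers summed to 4029.8–9624 CPM in the IAF cells of CON and 2058–2872 CPM in those of LDP, most of it Col1a1. Igfbp5, Igfbp6, Myoc and Col1a1 were each lower in LDP without overlap, whereas Fibin had a mean of 217 CPM in both. The 4 endothelial markers (Cdh5, Plvap, Ifitm3 and Flt1) summed to 74.9–448 CPM in CON and 35.1–64.2 CPM in LDP. Ifitm3 is not particular to endothelial cells here. In CON OAF cells without UMIs of mural or of certain other non-disc markers it had 744 to 1032 CPM, beside 1.64 to 10.3 of Cdh5. Lum was higher in NP than in IAF cells in 0 of 4 libraries of CON but in 3 of 4 of LDP, with LDP means of 22.8 and 18.7 CPM. Igfbp5, Igfbp6, Myoc and Fibin were higher in NP than in IAF cells in 3, 3, 4 and 0 of 4 LDP libraries. In CON each was so in 0 of 4. Among the markers fixed for NP cells, Acan, Cd24 and S100b were higher in NP than in IAF cells in 4 of 4 libraries of CON and of LDP. Col2a1 was so in 2 of 4 libraries of CON and 1 of 4 of LDP, and Pdia4 in 1 of 4 of each. CON and LDP were clustered apart, and IAF cells had medians of 2442 to 3789 UMIs in CON and 4099.5 to 6403 in LDP. The part of where the clusters were cut in the Lum value was not tested.

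In NP cells 0 of 10811 genes passed in limma (0%), with 1066 at an unadjusted p below 0.05, 1 in edgeR and 191 in DESeq2. Chad had the smallest p among the members. It had 7925, 12987, 12419 and 11359 CPM in CON and 7961, 7744, 9144 and 8055 CPM in LDP, where rats 2, 3 and 4 were lower and rat 1 was level, and the log2 difference was −0.42 (SE 0.13, adjusted p = 0.406). With the LDP subclusters taken by their deposited number, an alternative chosen after seeing the data, it was −0.15. Lum in NP cells differed by −0.35 with a 95% interval of −1.19 to 0.49.

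In OAF cells 180 of 11667 genes were called (1.54%) and no member was among them. Dcn had 13546, 12096, 11296 and 13409 CPM in CON and 12402, 9487, 7699.6 and 8686 CPM in LDP, lower in 4 of 4 rats, with a log2 difference of −0.41 (SE 0.13, adjusted p = 0.212). The thinned share of OAF cells with Dcn was 97.2 to 99.8% in CON and 85.6 to 90.3% in LDP. Lum in OAF cells differed by −0.41 (SE 0.18, adjusted p = 0.417), lower in rats 1, 2 and 3 and higher in rat 4, and without rat 4 by −0.65 with an adjusted p of 0.0088, the 1 of 13 alternatives that called it. Fmod differed by −0.32 (SE 0.13, adjusted p = 0.383) and Chad by 0.29 (SE 0.24, adjusted p = 0.701). OAF cells of LDP held more RNA of mural cell markers than those of CON: Acta2, Myh11, Rgs5 and Kcnj8 summed to 8.85–25.6 CPM in CON and 192–515 CPM in LDP. In OAF cells without UMIs of mural or of certain other non-disc markers, an alternative chosen after seeing the data, 11 of 11549 genes were called, and the differences were −0.23 for Dcn, −0.14 for Fmod and −0.27 for Lum.

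**Figure D5:**
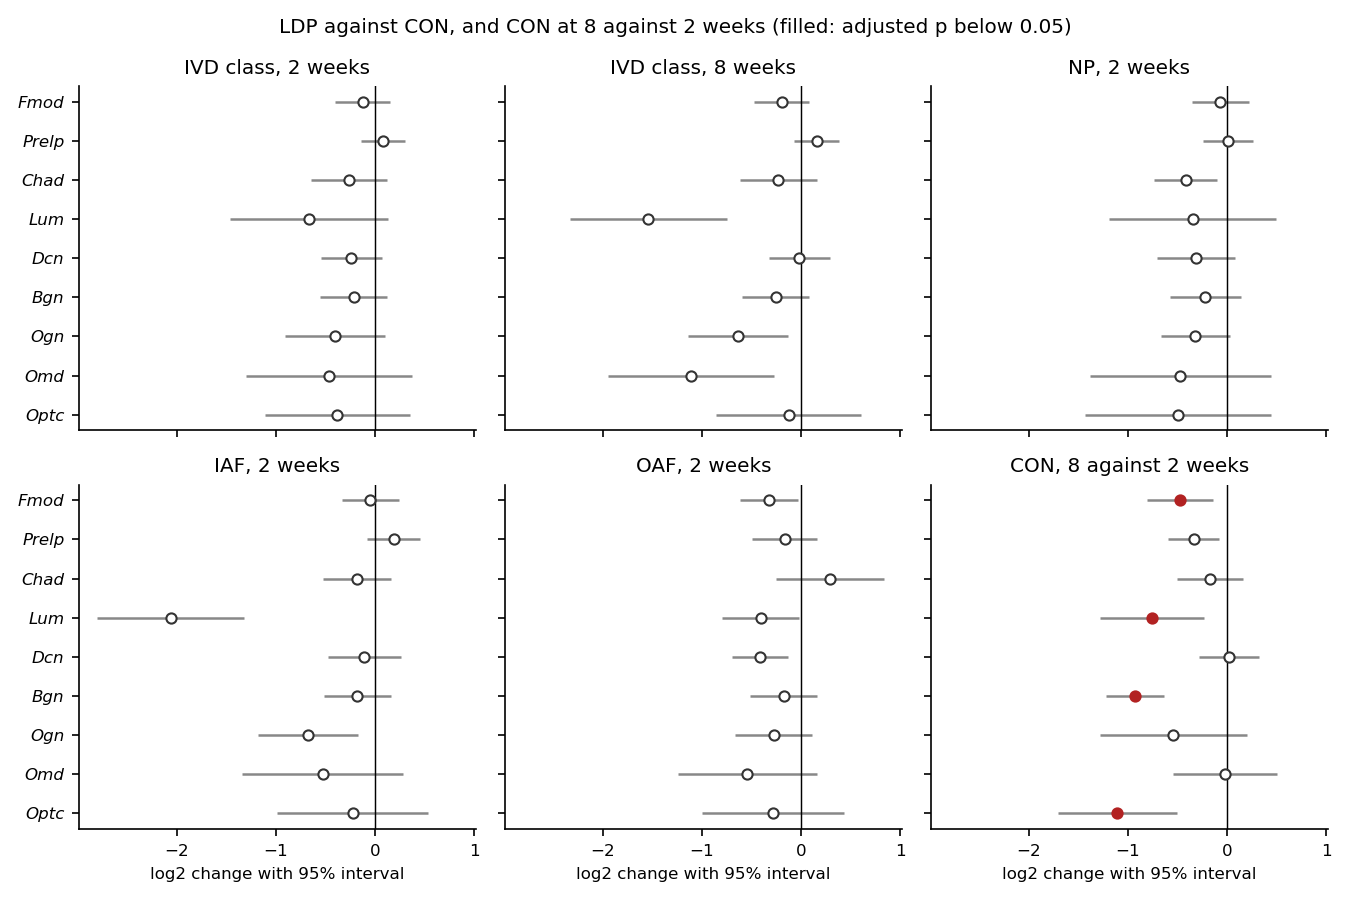
Log2 differences of each member (points) with 95% intervals (lines) for LDP against CON in the IVD class at both times and in NP, IAF and OAF cells at 2 weeks, and for CON at 8 against 2 weeks; filled red points passed an adjusted p of 0.05. No LDP difference is filled, Lum lies furthest below 0 in the IVD class at 8 weeks and in IAF cells, and 4 members are filled in the comparison of CON libraries.

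More genes were called between the uninjured discs of the 2 times than between injured and uninjured discs. The fit of the CON libraries had no rat as a block, so these counts come from fits of unlike form. Between the CON libraries of 8 and 2 weeks 2197 of 11201 genes were called in the IVD class (19.6%), 1346 of them lower at 8 weeks, and 4 of 9 members were called, all lower. Bgn had 2590.1, 2754, 2728 and 2148 CPM at 2 weeks and 1378, 1125, 1253 and 1640.2 CPM at 8 weeks, without overlap, and fell by 0.93 on the log2 scale (SE 0.13, adjusted p = 0.00125). Optc had 30.4, 16.6, 35.3 and 45.0 CPM at 2 weeks and 12.9, 14.0, 11.0 and 16.2 CPM at 8 weeks and fell by 1.11 (SE 0.27, adjusted p = 0.022). Lum and Fmod were called by a narrow margin, Lum at −0.75 (SE 0.23, adjusted p = 0.0498) and Fmod at −0.47 (SE 0.15, adjusted p = 0.0486). The libraries of Lum did not overlap, at 162 CPM or more against 148 CPM or less, and those of Fmod did, since the CON library of rat 8 had 2146 CPM beside 1393 to 1405 in the other 3. The call of Lum was lost under 12 of 16 alternatives and that of Fmod under 11 of 16, edgeR among both, and that of Optc when any of 5 libraries was left out, whereas Bgn was called under each alternative computed. Prelp differed by −0.34 (SE 0.12, adjusted p = 0.0666), and Dcn by 0.02 (95% interval −0.28 to 0.33), Omd by −0.02 (−0.55 to 0.50) and Chad by −0.17 (−0.50 to 0.16). The times are different animals with no rat in both, and each group was clustered apart, so age, time after surgery, library preparation and the cut of the class cannot be told apart here. The summed OAF markers other than Lum ran from 8519 to 14824 CPM at 2 weeks and from 2260.4 to 4123 at 8 weeks. Most of this sum was Col1a1, at 6542 to 12155 and 1511 to 2948 CPM. Fibin did not overlap either, at 241 to 306 and 143 to 214 CPM, whereas Igfbp5, Igfbp6 and Myoc did. Col2a1, a marker of the IVD class and not of OAF cells, had means of 10427 and 2398 CPM.

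Other genes of the family and of the matrix it binds were taken from lists. Of 9 further family genes looked for, Aspn, Ecm2, Kera, Epyc, Tsku and Chadl are listed for all groups, and of these Epyc did not reach the minimum level. Of the 5 tested in the IVD class, none was called between LDP and CON and 1 was called between the CON libraries of 8 and 2 weeks, Kera at −1.98 (SE 0.56, adjusted p = 0.0492), a share near the 19.6% of all genes. Ecm2, an extracellular matrix protein with similar repeats, was lower in LDP in 4 of 4 rats at both times, by 0.58 (SE 0.20, adjusted p = 0.332) at 2 weeks and by 0.84 (SE 0.20, adjusted p = 0.0928) at 8 weeks. Chadl, related to Chad, was higher in LDP in 4 of 4 rats at both times, by 0.39 (SE 0.14, adjusted p = 0.353) and 0.35 (SE 0.14, adjusted p = 0.213), at levels of 1.12 to 3.82 CPM.

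Most estimates of the fibrillar and associated collagens lay below 0. Of 11 collagen genes tested in the IVD class, 0 were called at either time, with medians of −0.41 at 2 weeks and −0.85 at 8 weeks beside −0.08 and −0.16 over all genes, and at 8 weeks all 11 estimates were below 0. The smallest p belonged to Col14a1 at −1.64 (SE 0.31, adjusted p = 0.0676) and Col12a1 at −1.52 (SE 0.30, adjusted p = 0.069), which sit on the surface of fibrils, followed by Col3a1 at −1.14 (SE 0.31, adjusted p = 0.111) and Col1a1 at −0.93 (SE 0.30, adjusted p = 0.152). Between CON at 8 and 2 weeks 10 of the 11 were called, all lower, with a median of −1.21, beside 19.6% called and a median of −0.02 over all genes. In IAF cells at 2 weeks 1 of 11 was called, Col1a1, at −1.43 (SE 0.18, adjusted p = 0.049), beside 0.0921% of all genes. The call was lost under 8 of 13 alternatives, edgeR (adjusted p = 0.167) among them, and with the LDP subclusters taken by their deposited number the difference was −0.84 (adjusted p = 0.0946). The LDP cluster named IAF had less Col1a1 than the NP cluster in 4 of 4 libraries, with means of 1993 and 3081 CPM, whereas in CON the IAF level was the higher one in 4 of 4.

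The enzymes that build the sugar chains and the partners of the family showed no call between LDP and CON in the IVD class. Of 20 genes of chondroitin and dermatan sulfate synthesis 0 were called at either time, and the smallest p at 8 weeks belonged to Ust, a uronyl sulfotransferase, at −0.61 (SE 0.17, adjusted p = 0.121), Chst3 at −0.54 (SE 0.16, adjusted p = 0.129), Xylt1 at −0.56 (SE 0.21, adjusted p = 0.186) and Xylt2 at −0.43 (SE 0.16, adjusted p = 0.192). Of 8 genes of keratan sulfate and tyrosine sulfation 0 were called, led by B4galt1 at −0.38 (SE 0.19, adjusted p = 0.271) and Tpst1 at 0.24 (SE 0.14, adjusted p = 0.327), with Tpst2 at −0.21 and B4galt4 at −0.15. Of 11 ligands, receptors and proteases 0 were called. The smallest p there belonged to Adamts5, an aggrecanase, at −0.89 (SE 0.17, adjusted p = 0.0639), Tgfb3 at −0.75 (SE 0.14, adjusted p = 0.0676), Adamts4 at −2.34 (SE 0.52, adjusted p = 0.0878) and Htra1, a protease that cuts several members, at −0.48 (SE 0.12, adjusted p = 0.0975), all at 8 weeks. Between CON at 8 and 2 weeks 11 of the 20 chondroitin and dermatan sulfate genes were called lower, as were 2 of the 8 keratan sulfate genes and 2 of the 11 partners, beside 19.6% of all genes called in either direction. In OAF cells at 2 weeks 1 of the 11 partners was called, Adamts4, at 1.61 (SE 0.16, adjusted p = 0.000189), beside 1.54% of all genes. Adamts4 had 96.2, 70.2, 89.5 and 72.5 CPM in the OAF cells of CON and 248, 281, 246 and 232 CPM in those of LDP, where the mural markers Acta2, Myh11, Rgs5 and Kcnj8 summed to 8.85–25.6 and 192–515 CPM. In OAF cells without UMIs of mural or of certain other non-disc markers it had 90.6, 68.0, 81.4 and 67.6 and 64.6, 86.9, 59.3 and 52.6 CPM, a difference of −0.23 (adjusted p = 0.792), so the call was lost and the sign turned.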

How the data were processed

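Per the labels and the study's methods, discs were digested with pronase and collagenase, and 3′ single-cell libraries were processed in Partek, with rn6 named as the build. The authors kept cells by gene number, UMI number and mitochondrial percent and clustered each group by K-means. The deposited values are log2(CPM + 1) per cell and gene, beside an estimated count total, a deposited percent of mitochondrial reads and class labels. Library totals ran from 17759809 to 85025591 UMIs, and 99.4 to 99.5% of values came out as whole counts within 0.02.

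CPM was averaged over the cells of a class in each library, classes under 20 cells being left out. Genes with at least 1 CPM in 4 libraries were tested with limma 3.58.1 (trend and robust) on log2(mean CPM + 1), in R 4.3.3, with the rat as a block and Benjamini-Hochberg adjustment. CON at 8 and 2 weeks were compared without a block. The pairing takes libraries with the same number in their titles (Control and Stab) as those of 1 rat. Deviations of a rat's CON and LDP libraries had correlations of −0.183 to 0.454. With the rat as a block, p-values measure how the difference of LDP from CON within a rat varies between rats. For CON at 8 against 2 weeks they measure the spread between rats. Each library is a pool of 2 discs. edgeR 4.0.16 and DESeq2 1.42.0 on summed recovered counts, filters, pseudocounts, scaling and leaving out each rat were alternatives. The tests were checked on simulated data.

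Members and lists were chosen with earlier results of these data known. Members were named by the list, and the 4 genes of each other list with the smallest p in the IVD class at 2 or 8 weeks were named. Likeness was Pearson’s r over 24 subcluster levels, and no nearest genes were sought for Omd and Optc, with means under 50 CPM. Levels are not ranked between genes. Doublets were not called. Some marker genes used in these steps are not reported here.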

Additional observations from a re-analysis of the deposited data

Results flagged for a closer look

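In 6 of 126 groups of 4 libraries 1 library lay far from the other 3 for a member, about as many as the 1 in 20 that chance gives. In the IVD class the CON library of rat 8 at 8 weeks had 2146 CPM of Fmod, beside 1393 to 1405 CPM in the other 3, and the CON library of rat 1 at 2 weeks had 266 CPM of Ogn, beside 208 to 217 CPM. In OAF cells the LDP library of rat 1 had 4574 CPM of Fmod, beside 2859 to 3017 CPM. Over all cells the CON library of rat 1 at 2 weeks had 6369 CPM of Chad, beside 10066 to 10307 CPM, and the CON library of rat 4 had 41.2 CPM of Omd, beside 24.7 to 27.5 CPM. Over all cells the CON library of rat 8 at 8 weeks had 15.4 CPM of Optc, beside 10.2 to 10.6 CPM.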

How the results depend on the processing

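Across the members, 1251 alternative values were computed. Of these, 1152 kept their side of the threshold and their direction, 9 were newly called, 28 lost a call, all between CON at 8 and 2 weeks, and 62 changed sign with the adjusted p above 0.05 in both fits. No called value changed direction. The newly called values were Lum at 8 weeks, in IAF and in OAF cells, Omd at 8 weeks, and Prelp between the CON libraries.

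Counts of genes called over all genes moved more, and the cause was not tested. DESeq2 called 285 genes in the IVD class at 2 weeks, 565 at 8 weeks, 13 for the difference, 142 and 209 over all cells at 2 and 8 weeks, 191 in NP and 194 in IAF cells. With no replicate block, so that libraries of a rat were not paired, 10 genes were called in the IVD class at 2 weeks, 3 for the difference, 3 over all cells at 8 weeks and 5 in IAF cells; the block changed no call of a member. A pseudocount of 10 gave 3 genes in the IVD class at 2 weeks and 2 in NP cells. Centring on the median gene gave 33 in the IVD class at 2 weeks, 1 over all cells at 2 weeks, 1 in NP and 16 in IAF cells. CPM of summed counts gave 1 and 5 over all cells at 2 and 8 weeks and 0 in IAF cells. edgeR gave 2 over all cells at 8 weeks, 1 in NP and 0 in IAF cells. At least 5 CPM gave 0 in IAF cells, and IVD cells without endothelial or immune UMIs gave 1 for the difference. LDP subclusters by deposited number, chosen after seeing the data, gave 1 gene in NP and 34 in IAF cells. Across its 13 alternatives, this one included, Lum in IAF cells ran from −2.43 to −1.51, with adjusted p of 0.00126 to 0.439. OAF cells without UMIs of markers of other cell types, also chosen then, gave 11 genes in place of 180.

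Leaving out 1 rat gave 0 to 7 genes in the IVD class at 2 weeks, 0 to 647 at 8 weeks (647 without rat 4), 0 to 13 for the difference (13 without rat 3), 0 to 1 over all cells at either time, 0 to 46 in NP and 0 to 36 in IAF cells (both highest without rat 4), 88 to 275 in OAF cells and 1150.0 to 2495 between the CON libraries. With 4 rats at each time, the LDP differences of most members were not separated from their spread between rats in these fits.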
